A study of Homo sapiens with 21 samples.

Results

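The genes described here are 41 genes of the autophagy machinery and its receptors, taken by symbol from a list. Most encode proteins that build the autophagosome or select its cargo. The list also holds regulators, the fusion tether EPG5 and the transcription factor FOXO3, and it was chosen with earlier results of these data known. The members are 41 of the 65065 genes in the count table, and each symbol matched 1 identifier. Of these, 40 passed the filter on low counts that left 19556 genes for testing. The study asked how HCT-116 cells, a human colorectal carcinoma line of epithelial-like cells, respond to extracellular vesicles (EVs), the membrane-bound particles that cells release. EVs isolated by GlyExo-Capture from the serum of patients with hepatocellular carcinoma (HCC+) or of healthy people (HCC-) were added at 0.048, 0.24 or 1.2 mg/mL, and the blank received none. Each of the 7 groups, HCC+ and HCC- EVs at 3 doses and the blank, had 3 libraries of poly(A) RNA, 21 in all. All groups were the same cell line, grown in DMEM with exosome-depleted serum. Whether replicates were separate cultures is not given in the labels, and the p-values therefore cover the spread between these libraries, which may be technical. Nor do the labels give how many people's serum went into a preparation or how long the cells were exposed.

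Macroautophagy encloses part of the cytoplasm in a double membrane, the autophagosome, which then fuses with a lysosome. The ULK kinase complex starts the process when nutrient signalling through mTORC1 falls, and a lipid kinase complex around BECN1 and PIK3C3 then marks the growing membrane with phosphatidylinositol 3-phosphate (PI3P). ATG9A and the ATG2 proteins supply lipid, WIPI proteins read PI3P, and an enzyme chain that resembles ubiquitin ligation attaches LC3 and GABARAP proteins to the membrane, where receptors such as SQSTM1 and OPTN tether cargo. The measurements here are of transcripts and hold no measure of autophagic flux, which depends largely on these proteins' modification and turnover.

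The libraries held 31219343 to 64012757 counts, and tested genes held 99.96% of them. CPM values are a library's counts brought to a common total with TMM factors, and differences are log2 fold changes with their standard errors (SE), from 1 fit of edgeR's quasi-likelihood model to all 21 libraries. A gene is said to have risen or fallen where its Benjamini-Hochberg adjusted p over all tested genes was under 0.05. All 12 epithelial markers of the line were tested, with KRT8 at 1770 to 2800 CPM, EPCAM at 213 to 314 CPM and the intestinal factor CDX2 at 14.9 to 23.5 CPM, while VIL1 reached at most 0.343 CPM. At 1.2 mg/mL 4 of the 12 rose and 1 fell with HCC+ EVs, and 5 rose and 4 fell with HCC- EVs. Called in either direction were 33% of all tested genes with HCC+ EVs and 53.3% with HCC- EVs. Summed over 8 endothelial and stromal markers, of which PECAM1, VWF and COL1A1 rose with both EVs at 1.2 mg/mL, levels were 24.6 to 34.5 CPM with HCC+ EVs at 1.2 mg/mL, 36 to 41.4 CPM with HCC- EVs at 1.2 mg/mL and 15.1 to 18.3 CPM in the blank. The sums over 14 blood and platelet markers were 21.4 to 22.6 CPM with HCC+ EVs, 16.4 to 17.8 CPM with HCC- EVs and 27.1 to 31.4 CPM in the blank, with PPBP, PF4, S100A8 and S100A9 at 0 in every library. In this list LYZ and CD14 rose and NRGN fell with both EVs. Over 13 hepatocyte markers the sums were 3.51 to 3.93 CPM with HCC+ EVs, 2.9 to 3.77 CPM with HCC- EVs and 2.61 to 3.07 CPM in the blank, with APOB, APOC3 and FGA at 0 in every library. The part of these markers in the results was not tested. In bulk RNA, fewer cells of a state and less RNA per cell cannot be told apart.

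Promoter sequences were found for 36 of the 41 genes in RefSeq (GRCh38.p14), and the 250 bases before the RefSeq start were searched on both strands for binding motifs of regulators of autophagy genes. The windows of 5 genes are shown because OPTN rose most with HCC+ EVs and ULK1 with HCC- EVs at 1.2 mg/mL, ATG3 and CALCOCO2 fell most with either, and ATG14 shares a motif with ATG3. The RefSeq start need not be the start in the count table's annotation, and the OPTN window lies wholly, and those of ATG14, ATG3 and CALCOCO2 partly, inside the gene limits given below. Capitals mark the motifs searched, and the sequences run 5′ to 3′ on the gene's strand.
ULK1, chr12:131894372-131894621 (+ strand): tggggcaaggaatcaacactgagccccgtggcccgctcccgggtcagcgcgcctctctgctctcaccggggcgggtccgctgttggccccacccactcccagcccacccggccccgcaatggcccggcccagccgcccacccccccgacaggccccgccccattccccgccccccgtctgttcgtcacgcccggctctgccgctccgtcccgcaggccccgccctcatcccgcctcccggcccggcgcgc
OPTN, chr10:13099832-13100081 (+ strand): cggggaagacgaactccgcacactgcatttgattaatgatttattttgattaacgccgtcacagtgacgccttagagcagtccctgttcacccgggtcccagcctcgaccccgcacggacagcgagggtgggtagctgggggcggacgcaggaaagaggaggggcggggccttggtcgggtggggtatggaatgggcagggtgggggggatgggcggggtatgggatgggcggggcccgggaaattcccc
ATG14, chr14:55411831-55412080 (- strand): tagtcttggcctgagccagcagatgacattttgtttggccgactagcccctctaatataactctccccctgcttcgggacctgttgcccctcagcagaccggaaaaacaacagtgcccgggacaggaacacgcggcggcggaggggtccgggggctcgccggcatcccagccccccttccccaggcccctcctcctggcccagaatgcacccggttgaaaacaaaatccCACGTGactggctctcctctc
ATG3, chr3:112561963-112562212 (- strand): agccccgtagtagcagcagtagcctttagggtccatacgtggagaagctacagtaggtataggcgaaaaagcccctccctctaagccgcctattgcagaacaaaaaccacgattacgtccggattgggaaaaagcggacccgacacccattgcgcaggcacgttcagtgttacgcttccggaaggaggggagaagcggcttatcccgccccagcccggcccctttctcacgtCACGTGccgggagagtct
CALCOCO2, chr17:48830785-48831034 (+ strand): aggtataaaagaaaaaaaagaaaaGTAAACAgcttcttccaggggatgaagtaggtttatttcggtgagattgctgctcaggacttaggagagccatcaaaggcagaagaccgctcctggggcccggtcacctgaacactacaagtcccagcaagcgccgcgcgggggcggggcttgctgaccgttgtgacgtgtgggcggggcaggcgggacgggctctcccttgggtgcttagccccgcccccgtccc
The E-box CACGTG, read by TFEB and TFE3 among other factors, stood in 3 of the 36 windows (8.33%), against 6.49% of all 27305 RefSeq windows of this length. Its first base lay 21 bases before the RefSeq start of ATG14, 18 bases before that of ATG3 and 31 bases before that of TBK1. At 1.2 mg/mL ATG14 rose with HCC- EVs, ATG3 fell with both EVs, and TBK1 was not called with either. Without the filter on low counts TBK1 was called as lower with HCC- EVs. The extended E-box TCACGTGA, whose matches also hold CACGTG, was in 0 of the 36 windows and in 0.89% of all. The forkhead motif TGTTTAC was found only in the CALCOCO2 window, 226 bases before the RefSeq start and on the other strand, which is 2.78% of the 36 windows, against 2.98% of all. The motif TGATGNAA of ATF4 composite elements was in 0 of the 36 windows and in 3.19% of all. The ULK1 and OPTN windows held none of these letters. A match describes the sequence alone.

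Scaled to exon length, the receptor SQSTM1 was the most abundant member, at 38.8 FPKM with HCC+ EVs at 1.2 mg/mL, 37.7 FPKM with HCC- EVs at 1.2 mg/mL and 31.5 ± 3.07 FPKM in the blank (SD, n = 3), where FPKM is CPM per kilobase of exon. VMP1, an endoplasmic reticulum scramblase needed for autophagosome formation, followed in the blank at 23.3 ± 2.35 FPKM, then MAP1LC3B at 18.3 ± 0.832 FPKM and ATG12 at 17.3 ± 2.1 FPKM. VMP1 and MAP1LC3B differed by more than their SDs, and MAP1LC3B and ATG12 did not. Of the tested members other than GABARAP, the lowest in the blank were ULK2 at 1.19 ± 0.0928 FPKM, ATG2B at 1.54 ± 0.19 FPKM and ATG10 at 1.69 ± 0.0994 FPKM. MAP1LC3A, which encodes another LC3 protein, had 43 counts in all 21 libraries together and was not tested. GABARAP had 328 counts in all, and 48.23% of its exon bases are shared with other annotated genes. How reads in shared bases were assigned is not given in the sources used here, and GABARAP is left out of the plots.

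**Figure D1:**
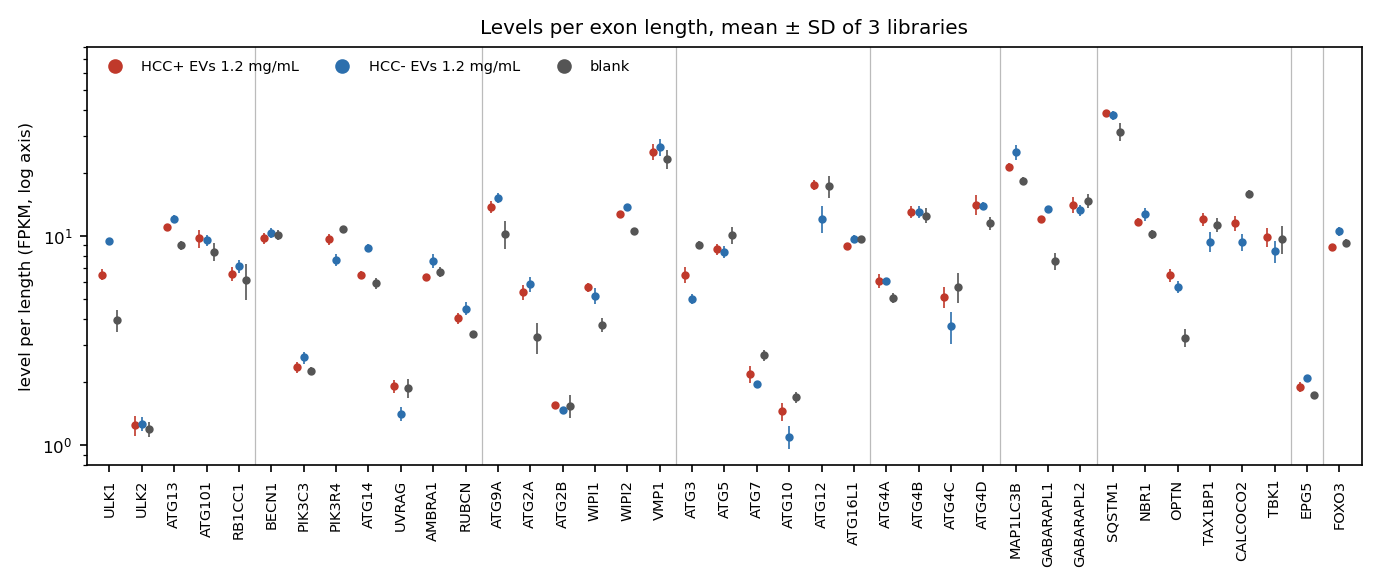
Levels per exon length of 39 autophagy genes on a log axis (FPKM), as mean ± SD of 3 libraries with HCC+ EVs at 1.2 mg/mL (red), with HCC- EVs at 1.2 mg/mL (blue) and in the blank (grey), with grey lines between roles. SQSTM1 stands highest in all 3 groups, and ULK1, GABARAPL1 and OPTN are higher with either EVs than in the blank, while ATG3 and CALCOCO2 are lower.

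At 1.2 mg/mL autophagy genes changed with EVs of both sources, and parts of the machinery moved in opposite directions. With HCC+ EVs 14 of the 40 tested genes rose and 4 fell, a called share of 45% beside 33% of all tested genes. With HCC- EVs 20 rose and 10 fell, 75% beside 53.3% of all tested genes. Of all tested genes, 15.6% rose and 17.4% fell with HCC+ EVs, and 24.8% rose and 28.5% fell with HCC- EVs. The median log2 fold change of the 40 genes was 0.08 with HCC+ EVs and 0.19 with HCC- EVs, beside 0.01 with HCC+ EVs and 0.05 with HCC- EVs over all tested genes. Both comparisons share the blank libraries and are not independent. Scaling to the total count alone in place of TMM moved the median of all genes by 0.12 with HCC+ EVs and by 0.28 with HCC- EVs, and then 20 members rose and 2 fell with HCC+ EVs and 27 rose and 6 fell with HCC- EVs. With that scaling 34.4% of all tested genes were called with HCC+ EVs and 57.4% with HCC- EVs. Of the 18 calls with HCC+ EVs 11 held under every setting tried and with any 1 library left out, and of the 30 with HCC- EVs 17 did. Over the 11 comparisons between groups 34 of the 40 genes were called at least once, and the 6 not called in this fit were ULK2, BECN1, ATG2B, ATG16L1, GABARAP and GABARAPL2.

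**Figure D2:**
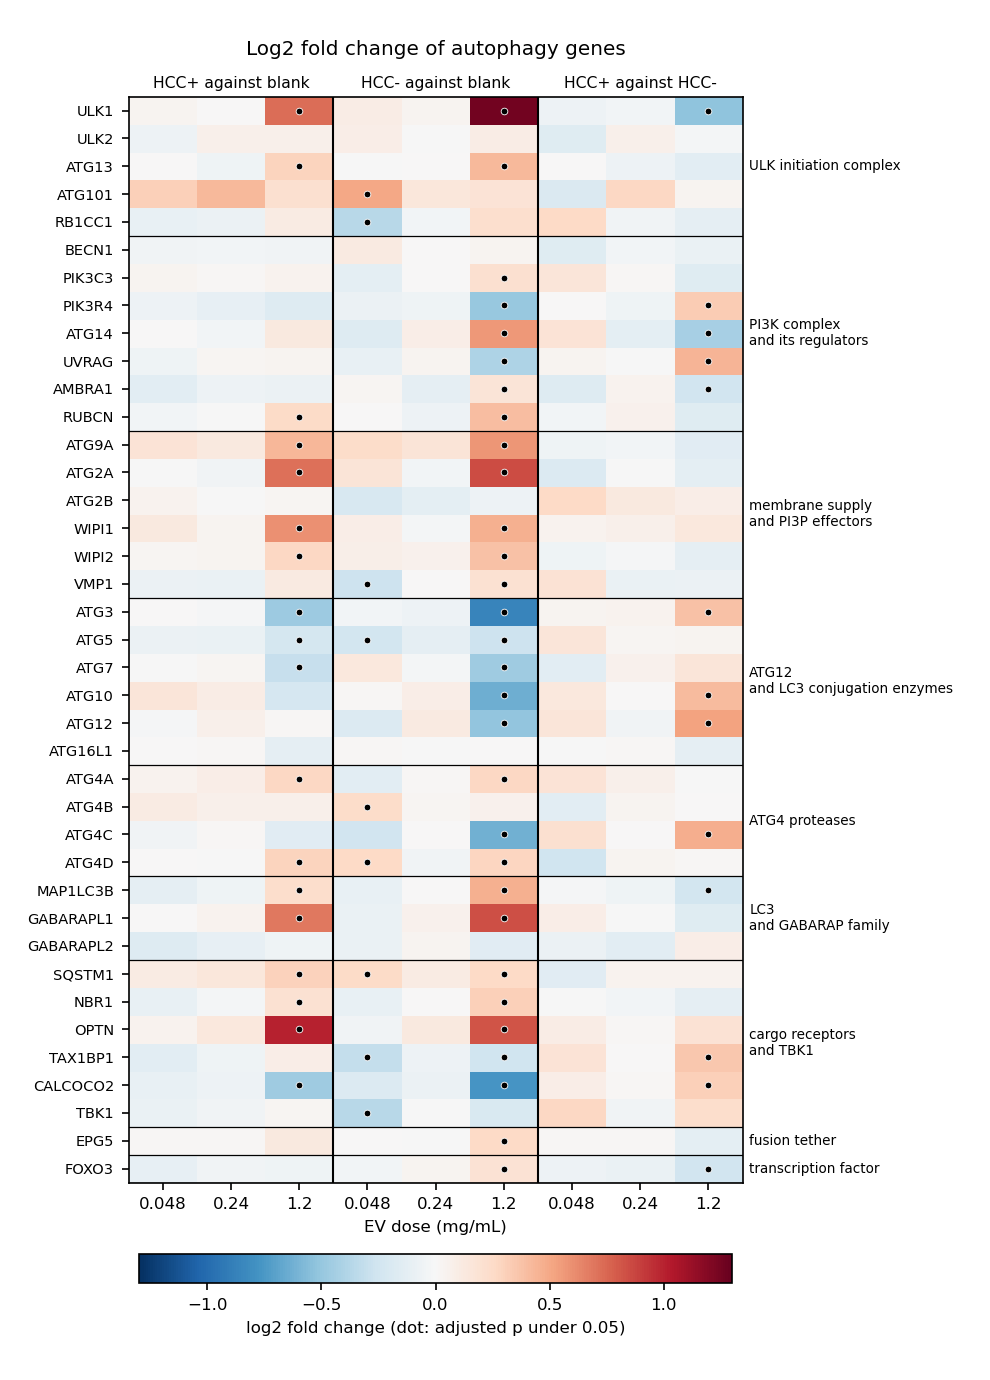
Log2 fold changes of 39 autophagy genes, grouped by role, for HCC+ EVs against the blank, HCC- EVs against the blank and HCC+ against HCC- EVs, each at 0.048, 0.24 and 1.2 mg/mL; dots mark an adjusted p under 0.05. Dots gather in the 1.2 mg/mL columns, where membrane supply genes are red and conjugation enzymes mostly blue against the blank, and the HCC- EVs at 0.048 mg/mL add 9 dots.

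ULK1, the kinase that starts autophagosome formation (ENSG00000177169, GRCh38 chromosome 12, 131894622 to 131923150, plus strand), had the largest difference between the sources among the genes that rose. It was at 52.8, 47 and 49.4 CPM with HCC+ EVs at 1.2 mg/mL, at 68.4, 73.8 and 72.8 CPM with HCC- EVs at 1.2 mg/mL, and at 28.7, 34.1 and 27.4 CPM in the blank. The 3 groups did not overlap, with HCC- EVs highest. The log2 fold change was 0.72 ± 0.10 with HCC+ EVs (adjusted p = 6.2e-07) and 1.25 ± 0.10 with HCC- EVs (adjusted p = 1.61e-12), and ULK1 fell by 0.53 ± 0.09 with HCC+ relative to HCC- EVs (adjusted p = 3.89e-05). ATG13, the subunit through which mTORC1 also controls the complex, rose by 0.29 ± 0.06 with HCC+ EVs and by 0.42 ± 0.06 with HCC- EVs. No change was called for the related kinase ULK2 (0.07 with HCC+ EVs and 0.09 with HCC- EVs), for ATG101, which stabilises ATG13 (0.21 with HCC+ EVs and 0.17 with HCC- EVs), or for the scaffold RB1CC1 (0.10 with HCC+ EVs and 0.22 with HCC- EVs). Thus 2 of the 5 ULK complex genes rose with either EVs and 0 fell, a called share of 40% beside 33% of all tested genes with HCC+ EVs and 53.3% with HCC- EVs. ATG101 was also called as higher with both EVs with RLE factors, with scaling to the total count and by DESeq2. RB1CC1 was called as higher with both EVs with the GC and length trends removed, and with HCC- EVs with RLE factors, scaling to the total count or no filter. With scaling to the total count 3 of the 5 rose with HCC+ EVs and all 5 with HCC- EVs. That scaling called 34.4% of all tested genes with HCC+ EVs and 57.4% with HCC- EVs. With trends by GC content and gene length removed, the ULK1 change with HCC+ EVs was 0.46.

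Of the 7 genes of the lipid kinase complex and its regulators, 1 rose and 0 fell with HCC+ EVs, while 4 rose and 2 fell with HCC- EVs. The called shares of all tested genes were 33% with HCC+ EVs and 53.3% with HCC- EVs. ATG14, which directs the complex to autophagosome formation (chromosome 14, 55366392 to 55411858, minus strand), was at 32.5, 34.3 and 31.7 CPM with HCC+ EVs at 1.2 mg/mL, at 43.2, 43.2 and 46.2 CPM with HCC- EVs and at 31.2, 28 and 30.8 CPM in the blank. The HCC- libraries lay above all others, and the HCC+ libraries only just above the blank. ATG14 rose by 0.56 ± 0.09 with HCC- EVs (adjusted p = 1.73e-06), was at 0.13 ± 0.09 with HCC+ EVs (adjusted p = 0.26) and fell by 0.43 ± 0.09 with HCC+ relative to HCC- EVs (adjusted p = 0.000168). Its change with HCC+ EVs passed the threshold at 0.25 with scaling to the total count and at 0.20 with the GC and length trends removed. UVRAG, which replaces ATG14 in the form of the complex that acts on endosomes, went the other way. It was at 13.5, 15.2 and 13.6 CPM with HCC+ EVs, at 11.1, 10.4 and 9.57 CPM with HCC- EVs and at 15, 12.1 and 14.1 CPM in the blank, so the HCC- libraries lay below both other groups. UVRAG fell by 0.41 ± 0.10 with HCC- EVs and was 0.44 ± 0.10 higher with HCC+ than with HCC- EVs (adjusted p = 0.00081).

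The kinase's regulatory subunit PIK3R4 had 50, 55.4 and 50 CPM with HCC+ EVs at 1.2 mg/mL, 42, 43.7 and 38.1 CPM with HCC- EVs and 60.1, 55.8 and 58.3 CPM in the blank. It fell by 0.49 ± 0.07 with HCC- EVs and was 0.33 ± 0.07 higher with HCC+ than with HCC- EVs, and the 3 groups did not overlap. RUBCN, which restrains the complex, rose by 0.24 ± 0.08 with HCC+ EVs and by 0.40 ± 0.08 with HCC- EVs, and the call with HCC+ EVs was lost without HCC+ replicate 1 (0.21) and with the GC and length trends removed (0.13). With those trends removed the rise with HCC- EVs was 0.17. The catalytic subunit PIK3C3 rose by 0.20 ± 0.08 with HCC- EVs, a call lost without HCC- replicate 1 (0.15) or without blank replicate 1 (0.22), 2 (0.17) or 3 (0.20). The PIK3C3 call was also lost without the filter (0.201) and with only the groups compared (0.225). AMBRA1, a scaffold that links the complex to ULK1, rose by 0.17 ± 0.07 with HCC- EVs with libraries that overlapped the blank. That call was lost without HCC- replicate 2 (0.14) or 3 (0.16), without blank replicate 1 (0.12) or 3 (0.17), and with the GC and length trends removed (-0.05). It was also lost without the filter (0.167) and with only the groups compared (0.193). AMBRA1 fell by 0.25 ± 0.07 with HCC+ relative to HCC- EVs. BECN1, the core scaffold, was at -0.05 ± 0.06 with HCC+ EVs and at 0.04 ± 0.06 with HCC- EVs and was called in no comparison, though scaled to the total count it was called as higher with HCC- EVs. Scaled to the total count, the fall of UVRAG with HCC- EVs (-0.12) and the difference of PIK3R4 between sources (0.16) did not pass the threshold.

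Genes that supply membrane or read PI3P rose with both EVs, and none was called between the sources, though ATG9A, ATG2A, WIPI2 and VMP1 were called as lower with HCC+ EVs with scaling to the total count, VMP1 also with the GC and length trends removed, and WIPI2 also with only the groups compared and by DESeq2. Of 6 genes, 4 rose with HCC+ EVs and 5 with HCC- EVs and 0 fell, although ATG2B fell with HCC- EVs with the GC and length trends removed. Among all tested genes 15.6% rose with HCC+ EVs and 24.8% with HCC- EVs. Called in either direction were 33% of all tested genes with HCC+ EVs and 53.3% with HCC- EVs. ATG2A, a lipid transfer protein that bridges the endoplasmic reticulum and the growing membrane (chromosome 11, 64894546 to 64917211, minus strand), had 46.2, 39.5 and 41.1 CPM with HCC+ EVs at 1.2 mg/mL, 42.2, 49.7 and 46.6 CPM with HCC- EVs and 23.5, 30.6 and 22.9 CPM in the blank. Both EV groups lay above the blank and overlapped each other, with log2 fold changes of 0.72 ± 0.10 for HCC+ EVs (adjusted p = 7.44e-07) and 0.84 ± 0.10 for HCC- EVs (adjusted p = 6.74e-09). The difference between HCC+ and HCC- EVs was -0.13 ± 0.09 (adjusted p = 0.309). ATG2B, its close relative, was at 0.02 ± 0.09 with HCC+ EVs and -0.07 ± 0.09 with HCC- EVs.

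ATG9A, the scramblase whose vesicles seed the membrane, was at 63.9, 61.6 and 69.8 CPM with HCC+ EVs, at 71.8, 68.2 and 75.5 CPM with HCC- EVs and at 46.1, 56.5 and 41.9 CPM in the blank. Both EV groups lay above the blank, and ATG9A rose by 0.43 ± 0.08 with HCC+ EVs (adjusted p = 0.000121) and by 0.58 ± 0.08 with HCC- EVs (adjusted p = 5.63e-07). WIPI1, a PI3P reader, had 19.9, 19.9 and 18.3 CPM with HCC+ EVs, 16.2, 19.2 and 17.3 CPM with HCC- EVs and 12.5, 13.9 and 12 CPM in the blank. It rose by 0.60 ± 0.10 with HCC+ EVs (adjusted p = 3.85e-05) and by 0.46 ± 0.10 with HCC- EVs (adjusted p = 0.000415), again with EV libraries all above the blank. WIPI2, which recruits the LC3 conjugation machinery, rose by 0.27 ± 0.06 with HCC+ EVs and 0.38 ± 0.06 with HCC- EVs. VMP1 rose by 0.19 ± 0.08 with HCC- EVs, with libraries that overlapped the blank, and was at 0.12 ± 0.08 with HCC+ EVs. The call of VMP1 was lost without HCC- replicate 1 (0.15) or 3 (0.18), without blank replicate 2 (0.10) and with only the groups compared (0.214). With the GC and length trends removed the value of VMP1 was 0.41. Shared exon bases limit ATG9A (38.8%, shared with an unnamed gene of the same strand) and WIPI1 (28.09%, shared with ARSG on the other strand), since the strand setting of the counting is not given in the sources used here. With the GC and length trends removed ATG2A rose by 0.46 with HCC+ EVs and 0.53 with HCC- EVs, and WIPI2 rose by 0.15 with HCC+ EVs and by 0.17 with HCC- EVs.

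**Figure D3:**
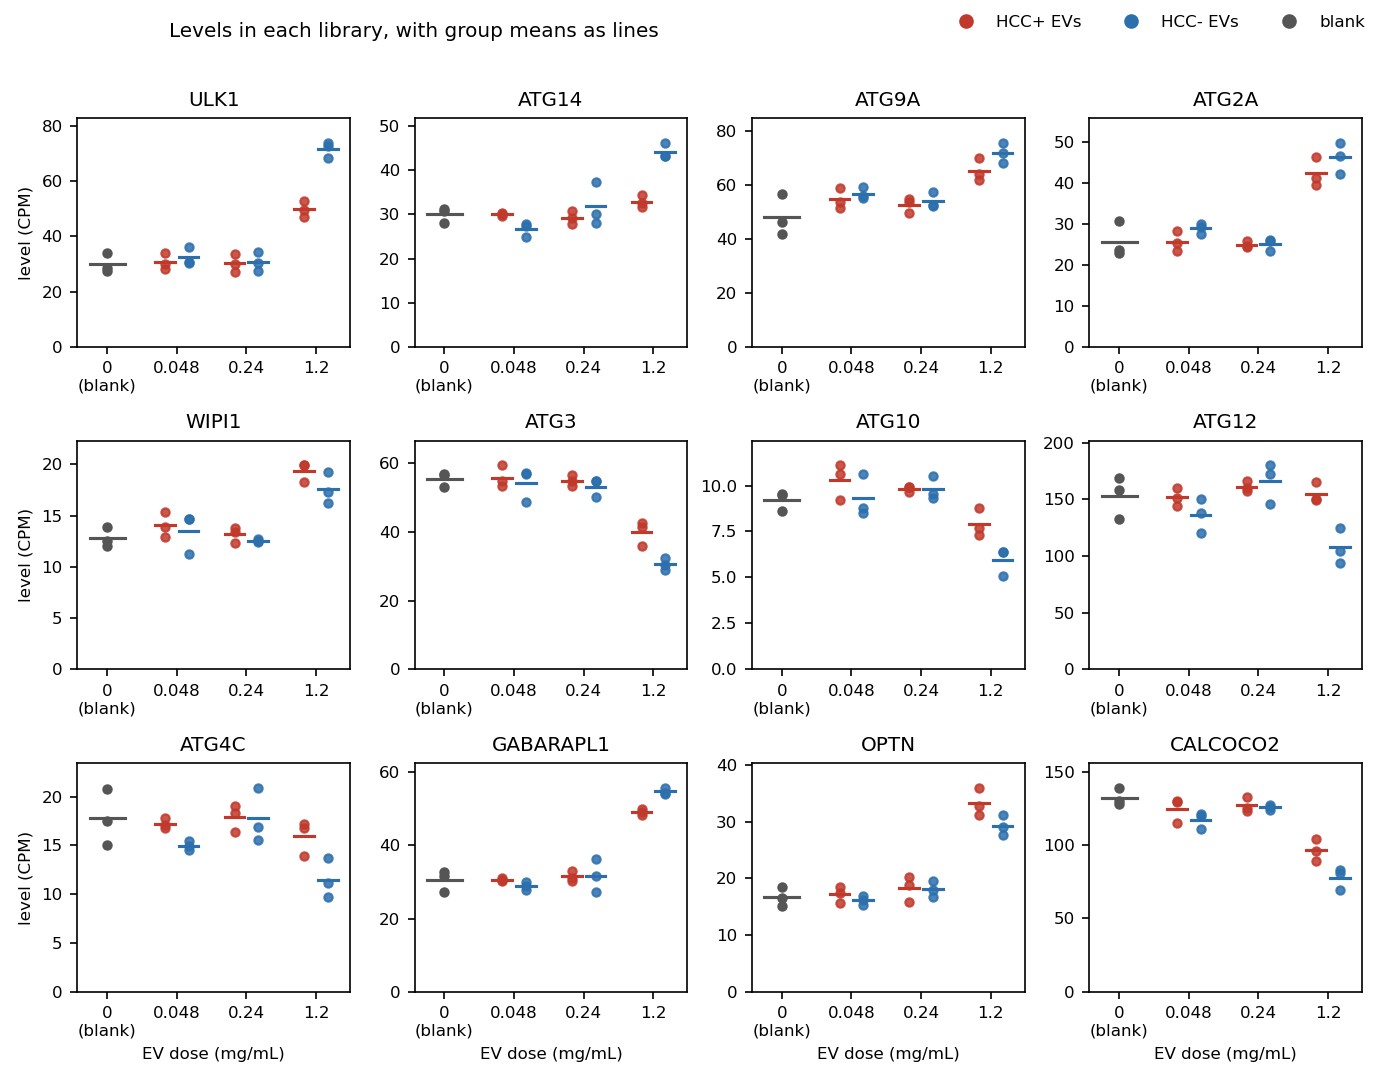
Level (CPM) of 12 autophagy genes in each library against EV dose (mg/mL), with HCC+ EVs in red, HCC- EVs in blue and the blank in grey at dose 0; horizontal lines are means of 3 libraries. In most panels the libraries at 0.048 and 0.24 mg/mL lie near the blank and those at 1.2 mg/mL apart, as for ULK1, where the HCC- libraries reach 68.4 to 73.8 CPM.

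Of the 6 enzymes and conjugates that attach LC3 to membrane, 3 fell with HCC+ EVs and 5 with HCC- EVs and 0 rose. Among all tested genes 17.4% fell with HCC+ EVs and 28.5% with HCC- EVs. Called in either direction were 33% of all tested genes with HCC+ EVs and 53.3% with HCC- EVs. But scaled to the total count only ATG3 fell with HCC+ EVs, and with HCC- EVs 3 fell and ATG16L1 rose. ATG3, the E2-like enzyme that passes LC3 to lipid (chromosome 3, 112532509 to 112562046, minus strand), was at 35.8, 42.5 and 41.3 CPM with HCC+ EVs at 1.2 mg/mL, at 32.4, 30.4 and 28.9 CPM with HCC- EVs and at 56.5, 53.2 and 56.8 CPM in the blank. The 3 groups did not overlap, with HCC- EVs lowest. ATG3 fell by 0.48 ± 0.08 with HCC+ EVs (adjusted p = 1.1e-05) and by 0.86 ± 0.08 with HCC- EVs (adjusted p = 4.6e-11), and was 0.38 ± 0.08 higher with HCC+ than with HCC- EVs (adjusted p = 0.000184). ATG12, the ubiquitin-like protein joined to ATG5, was at 149, 165 and 150 CPM with HCC+ EVs, at 125, 93.8 and 104 CPM with HCC- EVs and at 169, 133 and 158 CPM in the blank. Only the HCC- libraries lay below the blank. ATG12 fell by 0.51 ± 0.09 with HCC- EVs (adjusted p = 2.44e-05), was at 0.01 ± 0.09 with HCC+ EVs (adjusted p = 0.941) and was 0.53 ± 0.09 higher with HCC+ than with HCC- EVs (adjusted p = 4.31e-05).

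ATG10, the E2-like enzyme for ATG12, had 7.28, 7.68 and 8.79 CPM with HCC+ EVs at 1.2 mg/mL, 6.38, 6.38 and 5.09 CPM with HCC- EVs and 9.55, 8.59 and 9.51 CPM in the blank. HCC- libraries lay below both other groups, and ATG10 fell by 0.63 ± 0.12 with HCC- EVs (adjusted p = 4.69e-05), was at -0.22 ± 0.12 with HCC+ EVs (adjusted p = 0.173) and was 0.41 ± 0.12 higher with HCC+ than with HCC- EVs (adjusted p = 0.00666). ATG7, the E1-like enzyme for both conjugation chains, fell by 0.30 ± 0.10 with HCC+ EVs and by 0.46 ± 0.10 with HCC- EVs, and ATG5 fell by 0.23 ± 0.08 with HCC+ EVs and by 0.27 ± 0.08 with HCC- EVs. With HCC+ EVs the call of ATG7 was lost without HCC+ replicate 1 (-0.22) and without blank replicate 3 (-0.27), and that of ATG5 without HCC+ replicate 1 (-0.19) or 3 (-0.21) and without blank replicate 1 (-0.16). The ATG5 call with HCC+ EVs was also lost with only the groups compared (-0.222). Scaled to the total count, ATG7 was at -0.18 with HCC+ EVs and at -0.18 with HCC- EVs, and ATG5 at -0.11 with HCC+ EVs and at 0.01 with HCC- EVs, none of which passed. With the GC and length trends removed ATG5 also missed the threshold, at -0.10 with HCC+ EVs and -0.02 with HCC- EVs, and ATG12 with HCC- EVs was at -0.32. ATG16L1, which places the ATG12 and ATG5 conjugate on the membrane, was at -0.12 ± 0.07 with HCC+ EVs and at 0.00 ± 0.06 with HCC- EVs. Of ATG7's exon bases 18.08% are shared with VGLL4 on the other strand. ATG10 shares 6.87% with RPS23 on the other strand, which had 203873 counts in all libraries beside 8650 for ATG10. For ATG12 the share is 2.09%, with AP3S1 on the other strand, which had 336848 counts beside 144378 for ATG12. The difference of ATG10 between sources lost its call without HCC+ replicate 3 (0.33), without HCC- replicate 3 (0.31) and with scaling to the total count (0.25).

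The ATG4 proteases, which trim LC3 and GABARAP proteins before conjugation and release them from membrane later, did not move together. ATG4C was at 13.9, 17.2 and 16.8 CPM with HCC+ EVs at 1.2 mg/mL, at 13.7, 11.1 and 9.67 CPM with HCC- EVs and at 20.8, 15 and 17.5 CPM in the blank. The HCC- libraries lay below the other groups, although their highest, 13.7 CPM, was close to the lowest with HCC+ EVs. ATG4C fell by 0.62 ± 0.12 with HCC- EVs (adjusted p = 8.81e-05), was at -0.15 ± 0.12 with HCC+ EVs (adjusted p = 0.377) and was 0.47 ± 0.12 higher with HCC+ than with HCC- EVs (adjusted p = 0.00313). With the GC and length trends removed its fall with HCC- EVs was 0.16 and did not pass, and with scaling to the total count its difference between sources did not pass (0.31). ATG4A rose by 0.27 ± 0.10 with HCC+ EVs and by 0.27 ± 0.10 with HCC- EVs, and ATG4D rose by 0.29 ± 0.09 with HCC+ EVs and by 0.28 ± 0.09 with HCC- EVs. ATG4A lost its call with HCC+ EVs without HCC+ replicate 2 (0.21) or 3 (0.27) or blank replicate 1 (0.26) or 2 (0.23), and with HCC- EVs without HCC- replicate 1 (0.25) or blank replicate 1 (0.26) or 2 (0.22). With HCC+ EVs its call was also lost without the filter (0.276) and with only the groups compared (0.275). With the GC and length trends removed ATG4A was at 0.42 with HCC+ EVs and at 0.51 with HCC- EVs. ATG4D lost its call with those trends removed (0.16 with HCC+ EVs and 0.16 with HCC- EVs), without blank replicate 3 (0.26 with HCC+ EVs and 0.24 with HCC- EVs) and, with HCC+ EVs, without HCC+ replicate 3 (0.23). Of its exon bases 14.97% are shared with KRI1 on the other strand. ATG4B, the protease with the highest CPM, was at 0.06 ± 0.07 with HCC+ EVs and 0.05 ± 0.07 with HCC- EVs. Its direction depended on the setting, since it was called as lower with both EVs with the GC and length trends removed and as higher with both with scaling to the total count.

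Of the ubiquitin-like proteins that decorate the autophagosome, GABARAPL1 rose most (chromosome 12, 10212458 to 10223128, plus strand). It was at 49.2, 50.1 and 48.3 CPM with HCC+ EVs at 1.2 mg/mL, at 54.4, 54.1 and 55.8 CPM with HCC- EVs and at 31.7, 32.8 and 27.4 CPM in the blank. The 3 groups did not overlap, and the rise was 0.68 ± 0.08 with HCC+ EVs (adjusted p = 1.21e-07) and 0.84 ± 0.08 with HCC- EVs (adjusted p = 3.14e-10), with a difference between HCC+ and HCC- EVs of -0.15 ± 0.08 (adjusted p = 0.138). That difference was called with only the groups compared (-0.19) and with scaling to the total count (-0.32). MAP1LC3B, the LC3 protein most used as an autophagosome marker, was at 105, 113 and 105 CPM with HCC+ EVs, at 132, 114 and 133 CPM with HCC- EVs and at 96.1, 87.7 and 92.1 CPM in the blank. All EV libraries lay above the blank. MAP1LC3B rose by 0.23 ± 0.07 with HCC+ EVs, a call lost without HCC+ replicate 2 (0.19), and by 0.46 ± 0.07 with HCC- EVs, and it fell by 0.23 ± 0.07 with HCC+ relative to HCC- EVs (adjusted p = 0.00653). Reads of MAP1LC3B and its near-identical copy MAP1LC3B2 may not be told apart. GABARAPL2 was at -0.06 ± 0.08 with HCC+ EVs and at -0.14 ± 0.08 with HCC- EVs and was called in no comparison.

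Cargo receptors split as well: OPTN, SQSTM1 and NBR1 rose with both EVs and CALCOCO2 fell with both. OPTN, a receptor for damaged mitochondria and bacteria (chromosome 10, 13099449 to 13138308, plus strand), was at 36, 32.8 and 31.1 CPM with HCC+ EVs at 1.2 mg/mL, at 31.2, 29 and 27.7 CPM with HCC- EVs and at 18.4, 15.1 and 16.5 CPM in the blank. It rose by 1.00 ± 0.10 with HCC+ EVs (adjusted p = 3.6e-09) and by 0.81 ± 0.10 with HCC- EVs (adjusted p = 2.46e-08), with all EV libraries above the blank and a difference between HCC+ and HCC- EVs of 0.18 ± 0.10 (adjusted p = 0.134). CALCOCO2, also called NDP52, which binds ubiquitin-coated bacteria and mitochondria (chromosome 17, 48830988 to 48866522, plus strand), was at 88.8, 104 and 96 CPM with HCC+ EVs, at 81.1, 82.8 and 69.5 CPM with HCC- EVs and at 139, 128 and 130 CPM in the blank. Its groups did not overlap. It fell by 0.46 ± 0.07 with HCC+ EVs (adjusted p = 4.51e-06) and by 0.77 ± 0.07 with HCC- EVs (adjusted p = 6.61e-11) and was 0.31 ± 0.07 higher with HCC+ than with HCC- EVs (adjusted p = 0.000772).

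SQSTM1, or p62, the receptor that gathers ubiquitinated proteins, was at 304, 285 and 288 CPM with HCC+ EVs at 1.2 mg/mL, at 269, 297 and 286 CPM with HCC- EVs and at 225, 264 and 222 CPM in the blank. It rose by 0.30 ± 0.06 with HCC+ EVs and by 0.26 ± 0.06 with HCC- EVs, but with the GC and length trends removed the values were 0.13 with HCC+ EVs and -0.002 with HCC- EVs, where no change was called. Of its exon bases 22.39% are shared with MRNIP on the other strand. NBR1, a related receptor, rose by 0.20 ± 0.06 with HCC+ EVs, a call lost without HCC+ replicate 2 (0.16) and without blank replicate 2 (0.16), and by 0.31 ± 0.06 with HCC- EVs. The NBR1 call with HCC+ EVs was also lost with only the groups compared (0.205). TAX1BP1, which acts with SQSTM1 and NBR1 on protein aggregates, was at 102, 118 and 109 CPM with HCC+ EVs, at 96.8, 81.3 and 80 CPM with HCC- EVs and at 111, 95 and 103 CPM in the blank. It fell by 0.26 ± 0.08 with HCC- EVs although 1 library overlapped the blank, and it was 0.35 ± 0.07 higher with HCC+ than with HCC- EVs (adjusted p = 0.00041). That fall was not found with scaling to the total count, where the value was 0.02. TBK1, the kinase that phosphorylates OPTN and other receptors, was at 0.03 ± 0.10 with HCC+ EVs and at -0.20 ± 0.10 with HCC- EVs without a call. Without the filter TBK1 was called as lower with HCC- EVs. Without the filter or with the replicate block it was called as higher with HCC+ than with HCC- EVs.

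EPG5, a tether for the fusion of autophagosomes with late endosomes and lysosomes, rose by 0.25 ± 0.08 with HCC- EVs at 1.2 mg/mL and was at 0.12 ± 0.08 with HCC+ EVs (adjusted p = 0.251). FOXO3, a transcription factor that drives several autophagy genes when growth factor signalling is low, had 69.1, 66.7 and 68.7 CPM with HCC+ EVs, 83.1, 76.4 and 82.7 CPM with HCC- EVs and 72.5, 67.2 and 72.5 CPM in the blank. The HCC- libraries lay above both other groups. FOXO3 rose by 0.19 ± 0.06 with HCC- EVs, was at -0.05 ± 0.06 with HCC+ EVs and fell by 0.24 ± 0.06 with HCC+ relative to HCC- EVs (adjusted p = 0.00171). With the GC and length trends removed neither rise with HCC- EVs passed, at 0.09 for EPG5 and 0.10 for FOXO3, and FOXO3 was at 0.15 without blank replicate 2, also without a call.

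Between the sources at 1.2 mg/mL, 13 of 40 genes were called, 8 higher and 5 lower with HCC+ than with HCC- EVs, or 32.5% beside 35.3% of all tested genes, a share near the background. Of all tested genes 22.6% were higher and 12.7% lower. The median over members was -0.01, beside 0.01 over all genes. The 8 higher genes were PIK3R4, UVRAG, ATG3, ATG10, ATG12, ATG4C, TAX1BP1 and CALCOCO2, and for each the HCC- value against the blank was negative. The 5 lower were ULK1, ATG14, AMBRA1, MAP1LC3B and FOXO3, which all rose with HCC- EVs. Since these comparisons share libraries, the pattern is a description. Scaling to the total count moved the median of all genes by -0.16. With that scaling 22 of 40 members were called, 4 higher and 18 lower, beside 35.4% of all tested genes. Those lower with HCC+ EVs then included ATG9A (-0.30), ATG2A (-0.29) and GABARAPL1 (-0.32), and PIK3R4, ATG10, ATG4C and CALCOCO2 no longer passed as higher. ULK1, ATG14, UVRAG, AMBRA1, ATG3, ATG12, MAP1LC3B, TAX1BP1 and FOXO3 kept their calls under every setting tried and with any 1 library left out.

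At 0.24 mg/mL no autophagy gene was called. With HCC+ EVs 0 of 40 passed, beside 0.00511% of all genes, with 2 at an unadjusted p under 0.05 and 1 by DESeq2. That gene was ATG101, at 37.2, 36.6 and 34.4 CPM with HCC+ EVs and 24, 28.8 and 27.8 CPM in the blank, groups that did not overlap, with a log2 fold change of 0.42 ± 0.08 (adjusted p = 0.116 by edgeR). With HCC- EVs 0 passed, beside 0% of all genes, with 0 at an unadjusted p under 0.05 and 0 by DESeq2. Between HCC+ and HCC- EVs 0 passed, beside 0% of all genes, with 1 at an unadjusted p under 0.05, again ATG101 (0.27 ± 0.08), and 0 by DESeq2.

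At the lowest dose, 0.048 mg/mL, the sources differed in their counts of calls. With HCC+ EVs 0 of 40 genes passed against the blank, beside 0% of all genes, with 3 at an unadjusted p under 0.05 and 0 by DESeq2. With HCC- EVs 9 passed, 4 higher and 5 lower, which is 22.5% beside 16.4% of all tested genes, of which 8.28% were higher and 8.16% lower. ATG101 rose most, with 36.9, 38.3 and 39.2 CPM with HCC- EVs against 24, 28.8 and 27.8 CPM in the blank, a change of 0.50 ± 0.08 (adjusted p = 0.00452). Its library ranges were apart, and 19.19% of its exon bases are shared with a gene on the other strand that had no counts. SQSTM1 (0.25 ± 0.06), ATG4D (0.26 ± 0.09) and ATG4B (0.24 ± 0.07) rose too. The initiation scaffold RB1CC1 fell by 0.36 ± 0.10 with libraries that overlapped the blank, TBK1 by 0.36 ± 0.10, TAX1BP1 by 0.31 ± 0.08, VMP1 by 0.27 ± 0.08 and ATG5 by 0.24 ± 0.08. These counts depended on single libraries. Without blank replicate 1, 0 genes were called, without blank replicate 2, 15, and without blank replicate 3, 1. Without HCC- replicate 1, 5 were called, without HCC- replicate 2, 3, and without HCC- replicate 3, 4. Shares of all genes with a library left out are not reported here. With the GC and length trends removed 1 call, ATG101, was made, beside 0.496% of all tested genes. By DESeq2 12 members were called, beside 34.1% of all genes. Between HCC+ and HCC- EVs at this dose 0 of 40 passed, beside 3.54% of all tested genes, 1.08% higher and 2.46% lower, with 11 at an unadjusted p under 0.05 and 3 by DESeq2. With only the groups compared 10 of 39 tested members were called, beside 21.8% of all genes. RB1CC1, ATG2B, VMP1, TAX1BP1 and TBK1 were then higher and ATG101, BECN1, AMBRA1, ATG4D and SQSTM1 lower with HCC+ than with HCC- EVs. By DESeq2 ATG2B was higher and BECN1 and ATG4D lower, and without the filter RB1CC1 and TBK1 were higher. Of all genes, 19.3% were called by DESeq2 and 3.94% without the filter.

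**Figure D4:**
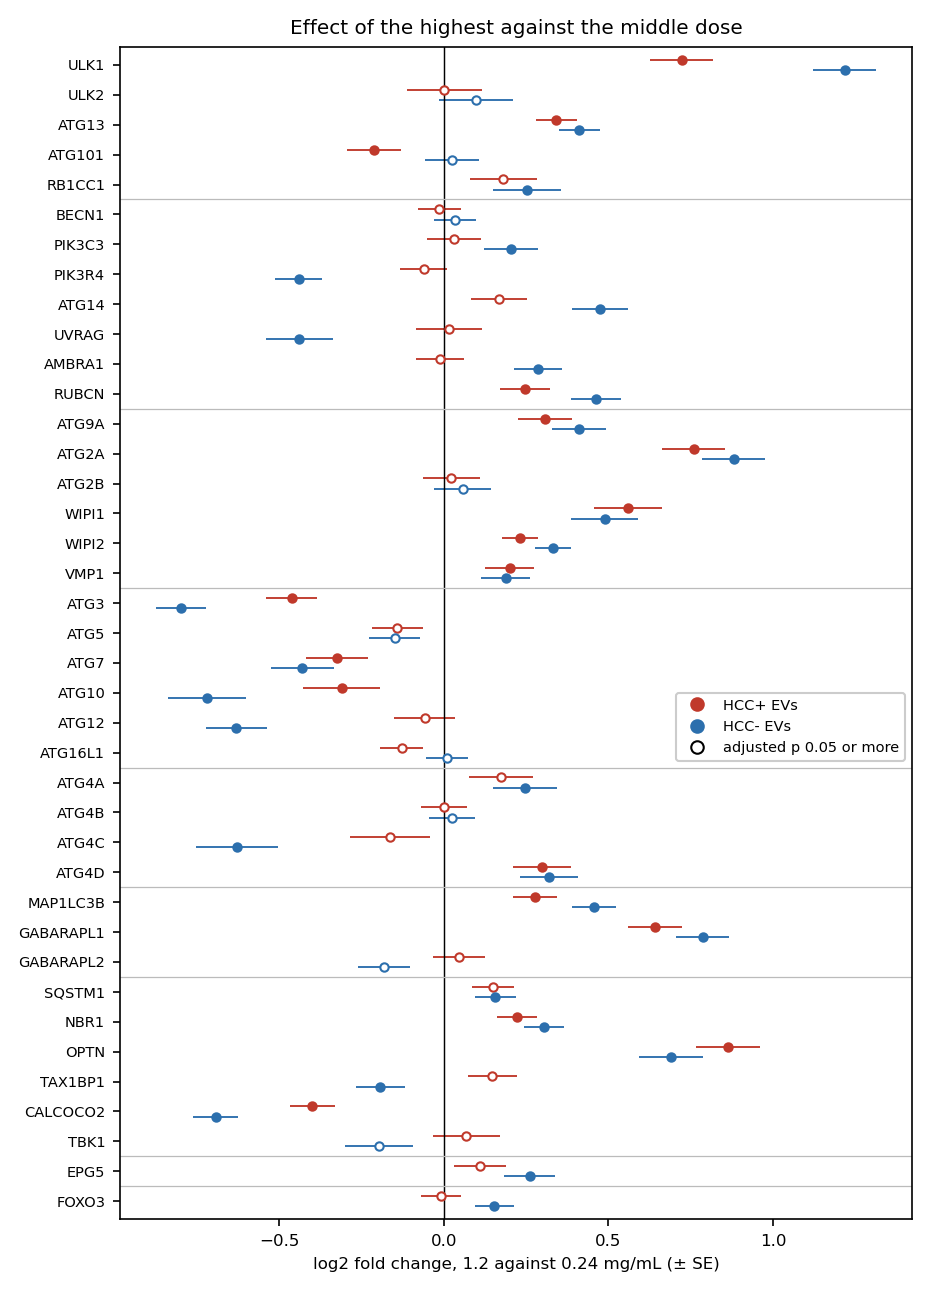
Log2 fold change (± SE) of 39 autophagy genes at 1.2 against 0.24 mg/mL for HCC+ EVs (red, upper point) and HCC- EVs (blue, lower point), with open points where the adjusted p was 0.05 or more and grey lines between roles. ULK1 is farthest to the right with HCC- EVs, at 1.22, and ATG3 farthest to the left, at -0.80, and for both the HCC+ point lies nearer 0.

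The step to the highest dose was also measured within each source, without the blank. At 1.2 against 0.24 mg/mL 13 genes rose and 5 fell with HCC+ EVs, 45% beside 29.2% of all genes, and 21 rose and 9 fell with HCC- EVs, 75% beside 51.8% of all genes. Of all tested genes 13.7% rose and 15.5% fell with HCC+ EVs, and 23.9% rose and 28% fell with HCC- EVs. Scaled to the total count, 19 members rose and 2 fell with HCC+ EVs, and 28 rose and 6 fell with HCC- EVs. The called shares of all tested genes were then 30.0% with HCC+ EVs and 55.5% with HCC- EVs. With HCC+ EVs the largest rises were those of OPTN (0.86 ± 0.10), ATG2A (0.76 ± 0.10), ULK1 (0.72 ± 0.10) and GABARAPL1 (0.64 ± 0.08), and the largest falls those of ATG3 (-0.46 ± 0.08) and CALCOCO2 (-0.40 ± 0.07). With HCC- EVs they were ULK1 (1.22 ± 0.10), ATG2A (0.88 ± 0.10), GABARAPL1 (0.79 ± 0.08) and OPTN (0.69 ± 0.10), and ATG3 (-0.80 ± 0.08), ATG10 (-0.72 ± 0.12) and CALCOCO2 (-0.69 ± 0.07). At the lower dose ULK1 was at 27.1, 33.5 and 29.9 CPM with HCC+ EVs and at 27.6, 34.4 and 30.4 CPM with HCC- EVs at 0.24 mg/mL, overlapping the blank. ATG101 fell by 0.21 ± 0.08 with HCC+ EVs (adjusted p = 0.0483), a call lost with RLE factors, scaling to the total count, no filter and the replicate block, while its partner ATG13 rose by 0.34 ± 0.06. ATG5 was not called, at -0.14 ± 0.08 with HCC+ EVs and -0.15 ± 0.08 with HCC- EVs.

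The difference between the sources in this step was tested as an interaction, chosen after the data were seen, and 8 of 40 genes were called, 6 higher and 2 lower with HCC+ than with HCC- EVs, 20% beside 21.3% of all tested genes, 15.1% higher and 6.26% lower. ATG12 was the clearest, at 0.57 ± 0.13 (adjusted p = 0.00195), since it fell by 0.63 ± 0.09 with HCC- EVs and was at -0.06 ± 0.09 with HCC+ EVs. ULK1 was lower by 0.50 ± 0.13 on the log2 scale (adjusted p = 0.00711), rising less with HCC+ EVs. Only ULK1 and ATG12 kept their calls under every setting tried and with any 1 library left out. No member of the membrane supply group was called, with values from -0.12 to 0.07, though WIPI2 was called as lower with scaling to the total count. Scaled to the total count, 11 of the 40 genes were called, 1 higher and 10 lower, beside 19.5% of all tested genes.

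Other genes of the pathway, taken from lists of non-members, give the context at 1.2 mg/mL against the blank. Their called shares stand beside 33% of all tested genes with HCC+ EVs and 53.3% with HCC- EVs. Of 9 further core autophagy genes tested, 3 rose and 1 fell with HCC+ EVs (44.4%) and 3 rose and 1 fell with HCC- EVs (44.4%). The PI3P reader WDR45 rose by 0.33 ± 0.08 with HCC+ EVs and by 0.41 ± 0.08 with HCC- EVs, and WDFY3, a scaffold for aggregate clearance, by 0.28 ± 0.07 with HCC+ EVs and by 0.39 ± 0.07 with HCC- EVs. WDR45B, a relative of WDR45, fell by 0.17 ± 0.06 with HCC+ EVs and by 0.15 ± 0.06 with HCC- EVs, but scaled to the total count it was not called with HCC+ EVs (-0.05) and was called as higher with HCC- EVs (0.13). MAP1LC3B2 rose by 0.78 ± 0.30 with HCC+ EVs and was not called with HCC- EVs. ATG9B, a relative of ATG9A, rose by 0.80 ± 0.30 with HCC- EVs. With HCC+ EVs ATG9B was at 0.69 without a call, and scaled to the total count it was called as higher (0.81). Of 15 genes of autophagosome and lysosome fusion, 4 rose and 3 fell with HCC+ EVs (46.7%), and 3 rose and 7 fell with HCC- EVs (66.7%). PLEKHM1, an adaptor between autophagosome and lysosome, rose by 0.51 ± 0.09 with HCC+ EVs and by 0.65 ± 0.09 with HCC- EVs, while the SNARE protein STX17 fell by 0.23 ± 0.08 with HCC+ EVs and by 0.72 ± 0.08 with HCC- EVs and the GTPase RAB7A fell by 0.18 ± 0.05 with HCC+ EVs and by 0.50 ± 0.05 with HCC- EVs. SNAP29, the partner of STX17, fell by 0.51 ± 0.08 with HCC- EVs and was at 0.08 ± 0.08 with HCC+ EVs. The tethering subunit VPS18 rose by 0.49 ± 0.07 with HCC+ EVs, as did the SNARE VAMP8 by 0.41 ± 0.07, and VPS11 fell by 0.35 ± 0.07. The falls of STX17 (-0.11) and RAB7A (-0.06) with HCC+ EVs were not called with scaling to the total count, and SNAP29 was then called as higher with HCC+ EVs (0.20).

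Among 17 receptors and regulators for mitochondria and endoplasmic reticulum, 2 rose and 2 fell with HCC+ EVs (23.5%) and 4 rose and 7 fell with HCC- EVs (64.7%). PINK1, the kinase that marks damaged mitochondria, rose by 1.64 ± 0.11 with HCC+ EVs (adjusted p = 1.76e-12) and by 1.65 ± 0.11 with HCC- EVs (adjusted p = 5.98e-14), more than any member with either EVs. CALCOCO1, a relative of CALCOCO2 that serves the endoplasmic reticulum, rose by 0.73 ± 0.10 with HCC+ EVs and by 0.98 ± 0.10 with HCC- EVs. PHB2, an inner membrane receptor, fell by 0.45 ± 0.06 with HCC+ EVs and by 0.72 ± 0.06 with HCC- EVs. ATL3, a receptor for endoplasmic reticulum tubules, fell by 0.34 ± 0.09 with HCC+ EVs and by 0.51 ± 0.09 with HCC- EVs, the first not called with scaling to the total count (-0.22).

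Upstream, of 27 genes of mTORC1, TSC and Rag control 4 rose and 6 fell with HCC+ EVs (37%) and 6 rose and 11 fell with HCC- EVs (63%). AKT1S1, an inhibitory subunit of mTORC1, rose by 0.51 ± 0.08 with HCC+ EVs and by 0.73 ± 0.08 with HCC- EVs, whereas RHEB, the GTPase that activates mTORC1, fell by 0.26 ± 0.06 with HCC+ EVs and by 0.60 ± 0.06 with HCC- EVs, and MTOR itself fell by 0.35 ± 0.05 with HCC- EVs and was at -0.06 ± 0.05 with HCC+ EVs. The falls of RHEB with HCC+ EVs (-0.14) and of MTOR with HCC- EVs (-0.07) were not called with scaling to the total count. With HCC+ EVs SESN3 rose by 1.00 ± 0.15 and DEPTOR by 1.00 ± 0.17, while SESN2 fell by 0.58 ± 0.09. FNIP2, a partner of folliculin, fell by 0.66 ± 0.10 with HCC- EVs. Of 8 AMPK genes 1 rose and 2 fell with HCC+ EVs (37.5%) and 2 rose and 2 fell with HCC- EVs (50%), with the subunit PRKAG1 falling by 0.55 ± 0.06 with HCC+ EVs and by 0.45 ± 0.06 with HCC- EVs. The subunit PRKAB1 fell by 0.38 ± 0.08 with HCC+ EVs, and with HCC- EVs the catalytic subunit PRKAA1 fell by 0.77 ± 0.10 and PRKAB2 rose by 0.47 ± 0.09. STK11, an upstream kinase of AMPK, rose by 0.20 ± 0.08 with HCC+ EVs and by 0.40 ± 0.08 with HCC- EVs. Of 11 transcriptional regulators 3 rose and 3 fell with each source (54.5% with HCC+ EVs and 54.5% with HCC- EVs). TFE3, an activator of lysosome and autophagy genes, rose by 0.46 ± 0.08 with HCC+ EVs and 1.01 ± 0.08 with HCC- EVs, and the stress factor ATF4 fell by 0.81 ± 0.07 with HCC+ EVs and by 0.38 ± 0.07 with HCC- EVs. DDIT3, another stress factor, fell by 1.58 ± 0.23 with HCC+ EVs and by 0.57 ± 0.21 with HCC- EVs, and XBP1 by 0.35 ± 0.07 with HCC+ EVs. FOXO4, a forkhead factor related to FOXO3, rose by 0.39 ± 0.11 with HCC- EVs. With HCC- EVs the falls of ATF4, DDIT3 and XBP1 (log2 fold change -0.22) were not called with scaling to the total count, where the values were -0.10 for ATF4, -0.29 for DDIT3 and 0.07 for XBP1.

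The balance of every one of these lists depended on the scaling. Scaled to the total count, 34.4% of all tested genes were called with HCC+ EVs and 57.4% with HCC- EVs. The median log2 fold change of all tested genes was then 0.133 with HCC+ EVs and 0.332 with HCC- EVs, so the counts below include that shift. With scaling to the total count and HCC+ EVs, 7 rose and 0 fell among the further core genes, 7 rose and 1 fell among the fusion genes and 5 rose and 1 fell among the receptors. Likewise 11 rose and 3 fell in the mTORC1 list, 2 rose and 2 fell in the AMPK list and 5 rose and 3 fell among the transcriptional regulators. With HCC- EVs and that scaling, 7 rose and 0 fell among the further core genes, 7 rose and 3 fell among the fusion genes and 7 rose and 4 fell among the receptors. In the mTORC1 list 15 rose and 4 fell, in the AMPK list 5 rose and 2 fell, and among the transcriptional regulators 7 rose and 0 fell.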

How the data were processed

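The 21 libraries were of poly(A) RNA, made with RNeasy Mini and NEBNext Ultra II RNA kits, per the labels' protocols. The authors deposited raw counts of reads per gene with exon coordinates, made with cutadapt 3.4, HISAT2 2.2.1 and featureCounts 2.0.1 on GRCh38, per the submitters' processing notes. Settings for strand and for reads with several matches, and the release of the gene annotation, were not stated, and reads in shared exons or near-identical copies could be lost or misassigned.

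Counts were fitted in edgeR 4.0.16 (limma 3.58.1, R 4.3.3) with TMM factors, filterByExpr, robust dispersions, 7 group means and the 2-sided quasi-likelihood F test with 14 residual degrees of freedom. An adjusted p under 0.05 (Benjamini-Hochberg over 19556 genes) made a call, and standard errors were derived by dividing the log2 fold change by the square root of F. The common biological coefficient of variation was 0.0885. Low counts limit some genes, MAP1LC3A and GABARAP among these members. For GABARAP a low level and a loss of reads in shared exon bases cannot be told apart. The members and lists were chosen with earlier results of these data known, so their counts are descriptions beside the same share of all genes. Values in every library are given for members called with a log2 fold change of at least 0.5 at 1.2 mg/mL, and for 7 others, PIK3R4, UVRAG, MAP1LC3B, SQSTM1, TAX1BP1, FOXO3 and ATG101, chosen after their values were seen. Of each pathway list, up to 4 called genes with the smallest p per source were named, except 1 gene that is not reported here.

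Alternatives were RLE factors, scaling to the total count, no filter except 1 count, the replicate number as a block, removal of trends with GC content and length, only the groups compared, DESeq2 1.42.0, and each library left out. GC content was known for 99.7% of tested genes, and 12231 genes set the trends. The method was tested on simulated data. No replicates of a group looked like 1 library deposited again, since their lowest chi-square per degree of freedom was 4.56. Promoters came from RefSeq. Figures used matplotlib 3.10.9 and Python 3.11.15.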

Additional observations from a re-analysis of the deposited data

Results flagged for a closer look

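The 8 genes below changed by a different amount from 0.24 to 1.2 mg/mL with HCC+ EVs than with HCC- EVs, in an interaction test by edgeR's quasi-likelihood method that was added after the data were seen. Each value is the log2 fold change of 1.2 against 0.24 mg/mL with HCC+ EVs minus that with HCC- EVs. In the ULK and lipid kinase complexes it was -0.50 ± 0.13 for ULK1 (adjusted p = 0.00711), -0.29 ± 0.10 for AMBRA1 (adjusted p = 0.0399), 0.38 ± 0.10 for PIK3R4 (adjusted p = 0.00663) and 0.45 ± 0.14 for UVRAG (adjusted p = 0.0212). Among conjugation enzymes it was 0.34 ± 0.11 for ATG3 (adjusted p = 0.0233) and 0.57 ± 0.13 for ATG12 (adjusted p = 0.00195). For the receptors it was 0.34 ± 0.10 for TAX1BP1 (adjusted p = 0.0194) and 0.29 ± 0.10 for CALCOCO2 (adjusted p = 0.0296).

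Scaled to the total count alone, the values of PIK3R4 (0.23), UVRAG (0.30), ATG3 (0.18), TAX1BP1 (0.19) and CALCOCO2 (0.14) no longer passed the threshold, and with the GC and length trends removed those of AMBRA1 (-0.19) and ATG3 (0.21) did not. Without the filter AMBRA1 (-0.287) did not pass either. Of the 12 fits that left out 1 library, AMBRA1 lost its call in 9 (values of -0.31 to -0.24), all but those without HCC+ replicate 1 or HCC- replicate 1 at 1.2 mg/mL or without HCC- replicate 2 at 0.24 mg/mL. Without HCC+ replicate 2 at 1.2 mg/mL ATG3 (0.27), UVRAG (0.38), TAX1BP1 (0.27) and CALCOCO2 (0.22) lost theirs, and without HCC- replicate 3 at 1.2 mg/mL ATG3 (0.29), UVRAG (0.39), TAX1BP1 (0.28) and CALCOCO2 (0.21) did. Without HCC+ replicate 3 at 1.2 mg/mL ATG3 (0.30) and CALCOCO2 (0.29) did, and without HCC- replicate 2 at 1.2 mg/mL ATG3 (0.32) and TAX1BP1 (0.29). At 0.24 mg/mL, calls were lost without HCC+ replicate 2 for UVRAG (0.40), ATG3 (0.32) and CALCOCO2 (0.29), without HCC+ replicate 3 for CALCOCO2 (0.28), without HCC- replicate 1 for ATG3 (0.32) and CALCOCO2 (0.29), and without HCC- replicate 3 for TAX1BP1 (0.31).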

How the results depend on the processing

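Counts of called members stayed within 1.5 times of the reported count in 76 recomputations with another setting and in 65 with 1 library left out, and left that range in 8 and 13. For HCC+ against HCC- EVs at 1.2 mg/mL, 22 were called with scaling to the total count, beside 35.4% of all tested genes. For HCC+ EVs at 0.24 mg/mL against the blank, 1 was called without the filter, 1 with the GC and length trends removed and 1 by DESeq2. For HCC+ against HCC- EVs at 0.048 mg/mL, 2 were called without the filter, 10 with only the groups compared and 3 by DESeq2. The shares of all genes were 3.94% without the filter, 21.8% with only the groups compared and 19.3% by DESeq2. For HCC- EVs at 0.048 mg/mL against the blank, 1 was called with the trends removed, beside 0.496% of all tested genes. Removing each library in turn gave 15 to 17 calls for HCC+ EVs and 27 to 29 for HCC- EVs at 1.2 mg/mL against the blank, 12 to 15 between the sources, 14 to 17 and 25 to 29 for 1.2 against 0.24 mg/mL, 0 to 1 for HCC+ EVs at 0.24 mg/mL, 0 to 15 for HCC- EVs at 0.048 mg/mL and 3 to 10 for the interaction. The interaction had 3 without HCC+ replicate 2 or HCC- replicate 3 at 1.2 mg/mL, 4 without HCC+ replicate 2 at 0.24 mg/mL, and 5 without HCC+ replicate 3 or HCC- replicate 2 at 1.2 mg/mL or HCC- replicate 1 at 0.24 mg/mL. The 1 call for HCC+ EVs at 0.24 mg/mL came without blank replicate 2.

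With HCC- EVs at 1.2 mg/mL, ATG5 (0.014) and TAX1BP1 (0.022) changed sign with scaling to the total count, and AMBRA1 (-0.047) and SQSTM1 (-0.002) with the trends removed. The cause was not tested. No pairing by replicate number was seen in the residuals, where 1 of 63 same-number pairs had a correlation over 0.1 (-0.0954 to 0.115). Low correlations cannot show that libraries of the same number were prepared apart, which the labels do not state. With the replicate block 18 and 30 members were called at 1.2 mg/mL against the blank with HCC+ and HCC- EVs, 14 between the sources, 16 and 30 for 1.2 against 0.24 mg/mL, 10 for HCC- EVs at 0.048 mg/mL, 9 for the interaction and 0 elsewhere. Low counts limit MAP1LC3A, with 43 in all.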
